A study of Arabidopsis thaliana with 4 samples.

Results

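The WRKY genes of Arabidopsis thaliana were examined for binding of phytochrome A (phyA), the plant photoreceptor for far-red light. A gene was a member when it is protein-coding, lies on a nuclear chromosome and carries a symbol in the reference gene table that is WRKY followed only by a number. This rule took 67 of the 27444 protein-coding genes on the 5 nuclear chromosomes and used no measured value. A further 5 genes are known as WRKY genes but listed under another symbol, and they are not members.

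Binding was measured by chromatin immunoprecipitation with sequencing (ChIP-seq) in 1 group of 3 biological replicates. Each replicate was prepared from etiolated seedlings, 4 days old, that had received far-red light for 3 h. The seedlings were phyA201 mutants with a transgene that encodes phyA fused to green fluorescent protein (GFP) under the PHYA promoter, and an antibody against GFP was used for precipitation. The input sample of DNA before precipitation was not analysed here, and no dark-grown, untreated or untagged sample enters the comparison, so every value describes far-red light in the tagged line.

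WRKY proteins are plant transcription factors named after a conserved run of amino acids in their DNA-binding domain, and they bind the W-box element in the promoters of their target genes. Many act in immunity downstream of mitogen-activated protein kinases or salicylic acid, and others act in senescence, phosphate uptake, heat tolerance or development. The family is divided by the number of WRKY domains and the type of zinc finger into groups I, II and III, and group II into subgroups IIa to IIe. The subgroups used here are the textbook ones, and WRKY19 and WRKY45 were left without one.

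The 3 peak lists held 6037 to 7534 peaks with 4951883 to 11110782 reads inside them, of which replicate 1 had the most reads and replicate 3 the fewest. A peak counted for a gene when it overlapped the gene body or the 1000 bp outside either end. Where a replicate had several peaks there, the peak with the highest fold enrichment was used. Fold enrichment is the authors' deposited ratio of signal at the peak over local background, and its lowest value in each list was 2.95. Summits, the points of highest signal within a peak, are given as TAIR10 coordinates. The gene table gives no strand, so the ends of a gene are named by their coordinates, and a promoter cannot be told from a downstream region.

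Peaks in all 3 replicates were found at 18 of the 67 WRKY genes (26.9%), against 18.8% of all protein-coding genes. Another 7 WRKY genes had peaks in 2 replicates, 5 in 1 replicate, and 37 (55.2%) in none, against 51.9% of all protein-coding genes without a peak in any list. Peaks in at least 2 replicates lay at 37.3% of the family, against 32.1% of all protein-coding genes. For at least 1 replicate the shares were 44.8 and 48.1%. In replicates 1, 2 and 3 a peak lay at 29, 23 and 21 WRKY genes, which is 43.3, 34.3 and 31.3% of the family. The same shares of all protein-coding genes were 35.3, 35.7 and 28.1%. The family's share was above the background in replicates 1 and 3 and below it in replicate 2. Of the protein-coding genes with a symbol of their own in the table, as every WRKY gene has, 23.6% had a peak in each replicate. No test of the family's share against other genes was made.

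Among the 18 genes, mean fold enrichment over the replicates had a median of 4.54 and ranged from 3.47 to 8.26. The median over all 5160 protein-coding genes with a peak in each replicate was 4.34. The median gene length was 2006 bp for the family and 2078 bp for all protein-coding genes. The 18 genes had a median length of 2197 bp and the 37 WRKY genes without a peak had 1752 bp. A longer gene has a wider window in which a peak can be counted, and the part of length in these counts was not tested.

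WRKY22 and WRKY47 stood above the rest of the family in every replicate. They were the first 2 WRKY genes by fold enrichment in each of the 3 lists. In the order of the means, 16 of 17 neighbouring pairs of genes differed by less than the larger SD of the pair. The exception was the gap between WRKY47 and WRKY51, at 2.42 in fold enrichment against a larger SD of 1.89. WRKY22 and WRKY47 differed by 0.53, within the larger SD of 1.69. Sorted neighbours lie close by construction, and these SDs contain differences between lists, so the gaps do not measure whether genes can be told apart.

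**Figure D1:**
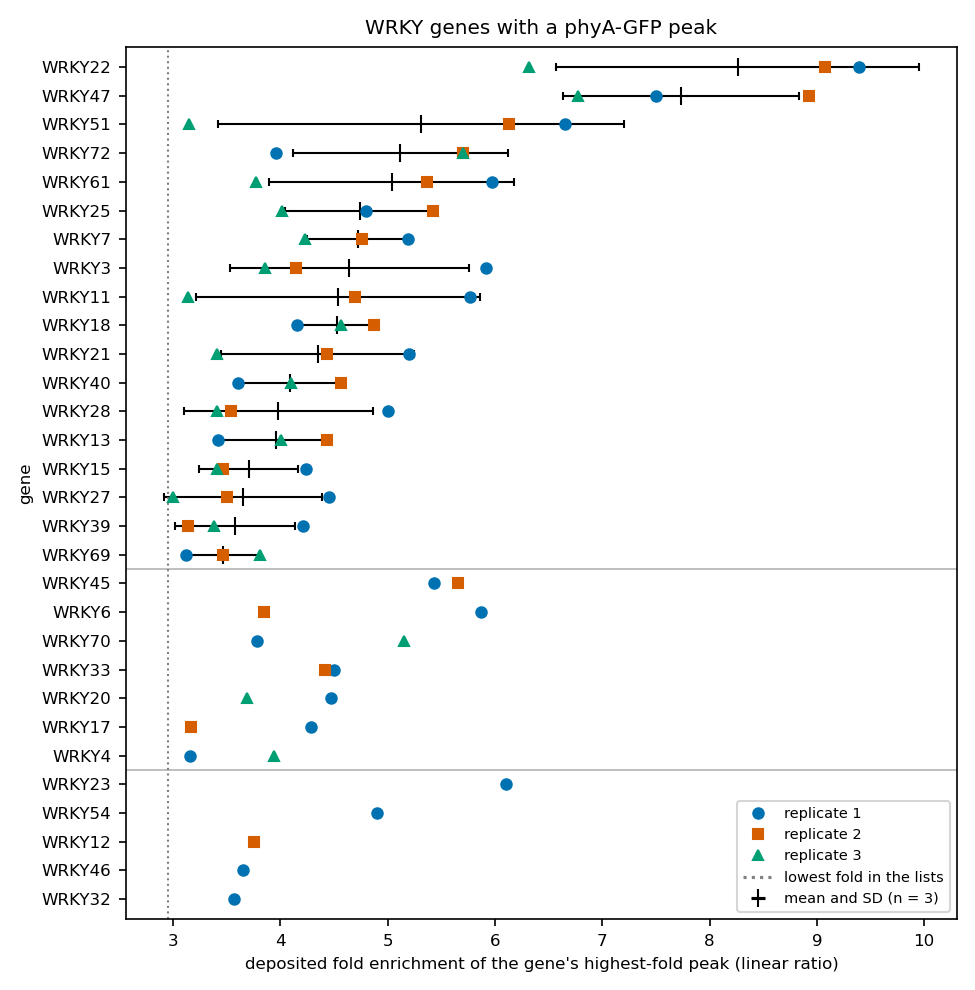
Deposited fold enrichment (horizontal axis, linear ratio) of the highest-fold peak of each replicate at the 30 WRKY genes (vertical axis) with a peak in any replicate, with the mean and SD of the 18 genes that had peaks in all 3. Grey lines separate genes with 3, 2 and 1 replicates, the dotted line is the lowest value of the lists (2.95), and only WRKY22 and WRKY47 reach 6.32 or more in every replicate.

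Subgroup IIe contains WRKY22, WRKY27 and WRKY29 among others. WRKY22 (AT4G01250, chromosome 4, 522530 to 524249), which acts with WRKY29 downstream of a mitogen-activated protein kinase cascade in the response to bacterial flagellin, had fold enrichments of 9.39, 9.08 and 6.32 in replicates 1, 2 and 3 (mean 8.26 ± 1.69, SD, n = 3). These peaks held 2890, 906 and 884 reads and ranked 8, 6 and 28 among all peaks of their lists. Their summits, at 525372, 525353 and 525327, lay within 45 bp of each other and 1078 to 1123 bp outside the gene's higher-coordinate end. The summits therefore agreed between replicates, but they sat just beyond the 1000 bp flank. The nearest other protein-coding gene to these summits, AT4G01245, was 2219 to 2264 bp away. A weaker peak nearer to the gene, with a summit 185 bp beyond its end in replicate 1 and 199 bp in replicate 3, had fold enrichments of 3.20 and 3.03.

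WRKY29 itself had no peak in its window, and the closest peaks lay 4801 to 4952 bp away in the 3 lists. WRKY27, which influences susceptibility to bacterial wilt, had fold enrichments of 4.45, 3.50 and 3.00 with summits within 163 bp, all 260 to 423 bp beyond its higher-coordinate end. WRKY69 had lower values of 3.12, 3.47 and 3.81, with all 3 summits inside the gene body. Subgroup IIe thus had 3 of 7 genes (42.9%) with peaks in each replicate, beside 18.8% of all protein-coding genes, a difference that was not tested. They held both the highest and the lowest mean of the 18.

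Subgroup IIb held the other gene at the top. WRKY47 (AT4G01720, chromosome 4, 744804 to 748554) had fold enrichments of 7.50, 8.93 and 6.77 (mean 7.73 ± 1.10, SD, n = 3) with 1307, 1009 and 868 reads in the peaks. The summits at 744098, 744136 and 744121 spanned 38 bp, the tightest of the 18 genes, and lay 668 to 706 bp outside the lower-coordinate end. The nearest other protein-coding gene, AT4G01730, was 5171 to 5209 bp away from them. A weaker peak stood at the opposite end of WRKY47 in each replicate, with fold enrichments of 4.34, 3.97 and 3.47 and summits at 749238, 749178 and 749258. Those summits were 49 to 129 bp from AT4G01730, and so the peaks at the ends of WRKY47 differ in which gene lies nearest.

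WRKY72, which contributes to basal defence, had 3.96, 5.70 and 5.70 with summits within 60 bp of each other, 283 to 343 bp beyond the higher-coordinate end. Its fold enrichment stood at rank 22 of 29 WRKY genes in replicate 1 and at ranks 4 of 23 and 3 of 21 in replicates 2 and 3. WRKY61 had 5.97, 5.37 and 3.77, but the highest-fold peak of replicate 1 had its summit 397 bp from the gene and those of replicates 2 and 3 were 1243 and 1255 bp away. A second peak of replicate 1, with a summit 1312 bp away and a fold enrichment of 4.74, lay within 69 bp of the summits of the other lists. WRKY6, a regulator of senescence and phosphate transport, had 5.87 and 3.85 in replicates 1 and 2, while the nearest peak of replicate 3 was 55748 bp away. WRKY42, which also acts on phosphate transport, had none in its window, as had WRKY9, WRKY31 and WRKY36. WRKY36, chosen here after its values were seen, is known as a repressor of the light-response gene HY5.

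Most genes of subgroup IId had peaks in all 3 replicates. Its proteins bind calmodulin, the calcium sensor, and WRKY7, WRKY11 and WRKY17 restrain basal resistance to bacteria. Of its 7 genes, 5 (71.4%) had peaks in every replicate, WRKY17 in 2 and WRKY74 in none, beside 26.9% for the family and 18.8% for all protein-coding genes. Whether the subgroups differ was not tested. With the summit of each replicate required to lie in the window, 4 of the 7 (57.1%) remained, and subgroup IIa, at 2 of 3 genes under either rule, then had the higher share (66.7%).

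Summits of the IId genes were often scattered or nearer to a neighbouring gene. WRKY7 had fold enrichments of 5.19, 4.76 and 4.23 (mean 4.73 ± 0.48, SD, n = 3), and each replicate had a peak at either end of the gene body. The 3 summits at the lower-coordinate end lay within 55 bp, at 12571732, 12571677 and 12571708, although the highest-fold peak in replicate 3 was the one at the opposite end. WRKY11 had 5.77, 4.70 and 3.14, and its summits spanned 1992 bp, from the gene body in replicates 2 and 3 to 658 bp beyond the gene in replicate 1. Replicates 1 and 2 each had a second peak at WRKY11, at 4.45 and 3.94, with summits at 15289669 and 15290730. The summit of replicate 3 was at 15290600. WRKY21 had 5.20, 4.44 and 3.41, of which the first came from a peak at its lower-coordinate end and the others from peaks with summits inside the neighbouring gene AT2G30600. Replicate 1 also had a peak with its summit in AT2G30600, at 3.51, and replicate 3 also had a peak at the lower-coordinate end, at 3.12. Replicate 2 had no peak at that end.

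WRKY15, which acts in oxidative and osmotic stress, had 4.24, 3.47 and 3.41, with broad peaks of up to 2791 bp and summits 1959 bp apart. A second peak of replicate 1 at WRKY15, at 3.52, had its summit at 9926404, near that of replicate 3 at 9926315. WRKY39, which acts in heat tolerance, had 4.21, 3.14 and 3.38, and all 3 summits lay nearer to the neighbouring gene CLPS3 than to WRKY39. WRKY17 had 4.29 and 3.17 in replicates 1 and 2 with both summits inside the gene, and the nearest peak of replicate 3 was 5553 bp away. Of the 6 IId genes with peaks, WRKY7 and WRKY17 had every highest-fold summit inside the gene body.

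**Figure D2:**
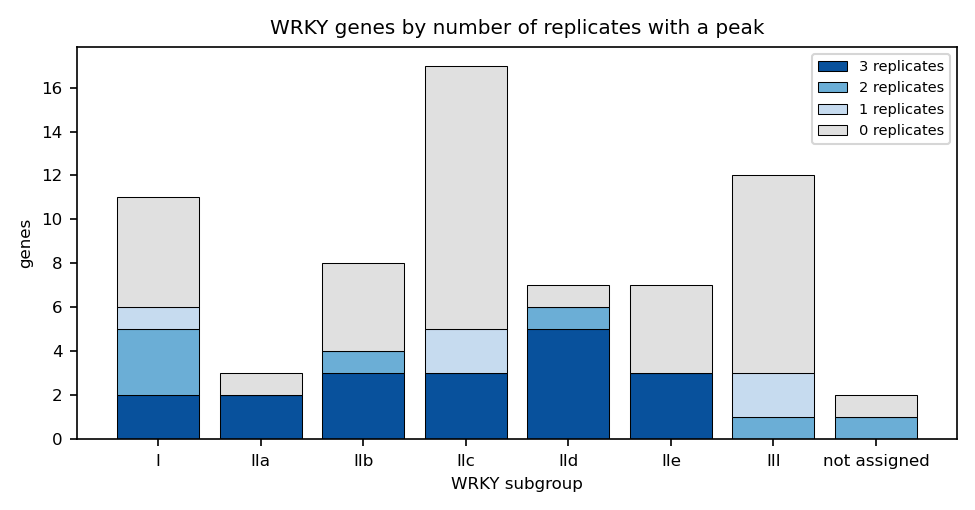
Number of WRKY genes (vertical axis) in each subgroup (horizontal axis), divided by the number of replicates with a peak in the gene body or the 1000 bp outside it. IId has 5 of 7 genes with peaks in all 3 replicates, and III has 0 of 12, beside 18.8% of all protein-coding genes. Differences between these small groups were not tested.

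Subgroup IIa consists of WRKY18, WRKY40 and WRKY60, whose proteins bind one another and act as repressors in defence and in abscisic acid responses. Here WRKY18 and WRKY40 had peaks in each replicate and WRKY60 had none, with the nearest peak 41533 bp away. WRKY18 (AT4G31800, chromosome 4, 15382777 to 15385100) had fold enrichments of 4.16, 4.87 and 4.57 (mean 4.53 ± 0.36, SD, n = 3). Its peaks held 4536, 3406 and 2430 reads and were 3803, 3690 and 2925 bp long, which covered the whole gene. The summits lay 2546 bp apart, so WRKY18 carried broad signal without a shared point of highest enrichment.

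WRKY40 (AT1G80840, chromosome 1, 30383561 to 30385499) had 3.61, 4.57 and 4.10 (mean 4.09 ± 0.48, SD, n = 3). Its summits at 30383450, 30383531 and 30383573 fell within 123 bp at the lower-coordinate end of the gene. Unlike those of WRKY18, its summits marked the same end of the gene in every replicate, and WRKY40 was the nearest protein-coding gene to all of them.

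Group I proteins carry a pair of WRKY domains. Of its 11 members, WRKY25 and WRKY3 had peaks in each replicate (18.2%, close to the 18.8% of all protein-coding genes). Another 3 had them in 2 replicates, 1 in a single replicate and 5 in none. WRKY25, which acts with WRKY26 and WRKY33 in heat tolerance, had fold enrichments of 4.80, 5.42 and 4.02 (mean 4.75 ± 0.70, SD, n = 3). The summits spanned 58 bp and lay 24 to 82 bp beyond the gene, inside the adjoining gene U2B'', so the peak cannot be given to either gene alone. WRKY26 had no peak in its window.

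WRKY33 (AT2G38470, chromosome 2, 16108235 to 16110766), which controls synthesis of the antimicrobial compound camalexin, had 4.50 and 4.42 in replicates 1 and 2. Those peaks held 3801 and 3447 reads over 3654 and 4809 bp, and their summits lay 141 and 90 bp outside the lower-coordinate end. Replicate 3, the list with the fewest reads, had no peak in the window of WRKY33, and its nearest was 20199 bp away. WRKY3 and WRKY4 take part in resistance to necrotrophic fungi. WRKY3 had 5.92, 4.15 and 3.86, with summits 1242 to 1354 bp from the gene and nearer to AT2G03350. WRKY4 had 3.16 and 3.94 in replicates 1 and 3, and WRKY20 had 4.47 and 3.69 in the same replicates, the latter with its summit in AT4G26630. A second peak of replicate 3 at WRKY20, at 3.23, had its summit 130 bp beyond the higher-coordinate end. The replicate 1 summit lay 154 bp beyond the same end. WRKY32, known to promote HY5 expression in light, had a single peak, in replicate 1, at 3.57.

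Subgroup IIc is the largest and had peaks in every replicate at 3 of 17 genes (17.6%), close to the 18.8% of all protein-coding genes. WRKY51, which with WRKY50 links salicylic acid to repression of jasmonate signalling, had 6.65, 6.13 and 3.15. In replicates 1 and 2 the summits lay 189 and 167 bp outside its lower-coordinate end. In replicate 3 that peak was absent, and the value came from a peak whose summit lay 1262 bp from WRKY51 and nearer to CLE21. Replicate 1 also had a peak near CLE21, at 5.04, with its summit 1278 bp from WRKY51. The SD of WRKY51 was the largest of the 18 genes (1.89). WRKY51 was also the only gene of the 18 whose peaks did not join into a merged region with all 3 replicates.

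WRKY28, an activator of salicylic acid synthesis, had 5.00, 3.54 and 3.41 with summits within 76 bp, 726 to 802 bp from its lower-coordinate end. WRKY13, which acts in stem development and flowering, had 3.42, 4.44 and 4.01 with summits within 55 bp at 324 to 379 bp. Both genes thus had summits at the same place in each replicate, although the peaks of WRKY13 were 937 to 2978 bp long. WRKY12, whose action on flowering opposes that of WRKY13, had a peak in its window in replicate 2, with a summit 2196 bp away and nearer to CYCP4;1. WRKY23, of auxin-dependent root development, had a fold enrichment of 6.10 inside the gene in replicate 1 and no peak in the other lists, the nearest of which was 17320 bp away. WRKY43, WRKY48, WRKY57, WRKY71 and WRKY75 had none in their windows, and WRKY50 had none either.

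In group III, 0 of the 12 members had peaks in every replicate, beside 18.8% of all protein-coding genes. The group III gene ABO3 (WRKY63), listed under that symbol and so no member, did have them. WRKY70 and WRKY54 are regulators of salicylic acid responses that delay senescence. WRKY70 had 3.78 in replicate 1 and 5.15 in replicate 3, but the summits lay at opposite ends of the gene, 90 bp beyond the higher-coordinate end and 167 bp beyond the lower one. WRKY54 had a single peak at 4.90 in replicate 1, 77 bp beyond the gene, and WRKY46 a single peak at 3.65 in replicate 1. The other 9 genes had none, among them WRKY53, a promoter of senescence, with the closest peak 2168 bp away, WRKY30, and WRKY38 and WRKY62, which restrain defence. Of the 12 genes, 3 thus had a peak in any list, against 48.1% of all protein-coding genes, and a difference was not tested.

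Of the WRKY genes without a subgroup here, WRKY45, which activates a phosphate transporter gene, had short peaks of 370 and 405 bp inside the gene in replicates 1 and 2, at 5.43 and 5.66. Its summits were 326061 and 326085, and the nearest peak of replicate 3 was 21744 bp away. WRKY19, which combines a WRKY domain with parts of a resistance protein, had none.

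The 7 genes with peaks in 2 replicates all had a peak in replicate 1. Replicate 3 was the missing list for WRKY6, WRKY17, WRKY33 and WRKY45, and replicate 2 for WRKY4, WRKY20 and WRKY70. Of the 5 genes with peaks in 1 replicate, 4 had it in replicate 1 and 0 in replicate 3. Of all protein-coding genes, 18.8% had peaks in all 3 lists. Leaving out replicate 1, 2 or 3 raised this to 21.6, 21.4 and 26.8%, so replicate 3 was most often the missing list there too. Peaks in a single list were not split by replicate over all genes. Reads inside peaks ran in the order of replicates 1, 2 and 3. The share of all protein-coding genes with a peak was 35.3, 35.7 and 28.1% in that order. The part of depth in the absences at WRKY genes was not tested.

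Agreement of the replicates on the position of the summit divided the 18 genes. In 11 of them the summits of the 3 highest-fold peaks lay within 200 bp of each other, which is 61.1% of the 18, and the same held for 46.7% of all genes with peaks in each replicate. The 11 genes were WRKY3, WRKY13, WRKY22, WRKY25, WRKY27, WRKY28, WRKY39, WRKY40, WRKY47, WRKY69 and WRKY72. Over all 67 members this is 16.4%, against 8.79% of all protein-coding genes. The median distance between the outermost summits was 155 bp for the 18 genes and 246 bp for all genes with peaks in each replicate.

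Of the 54 highest-fold summits at the 18 genes, 13 lay inside the WRKY gene, 16 outside its lower-coordinate end and 25 outside its higher-coordinate end. In all, 31 of the 54 (57.4%) were inside the gene or within 500 bp of it. The WRKY gene was the nearest protein-coding gene to all 3 summits in 12 of the 18 genes and to none in 3, namely WRKY3, WRKY25 and WRKY39. Of the 54 peaks, 32 also counted for at least 1 other protein-coding gene by the same rule, so the signal often could not be tied to the WRKY gene alone. No peak counted for 2 WRKY genes. The counts of this paragraph were not made over all protein-coding genes, so they cannot be read as a trait of WRKY genes.

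**Figure D3:**
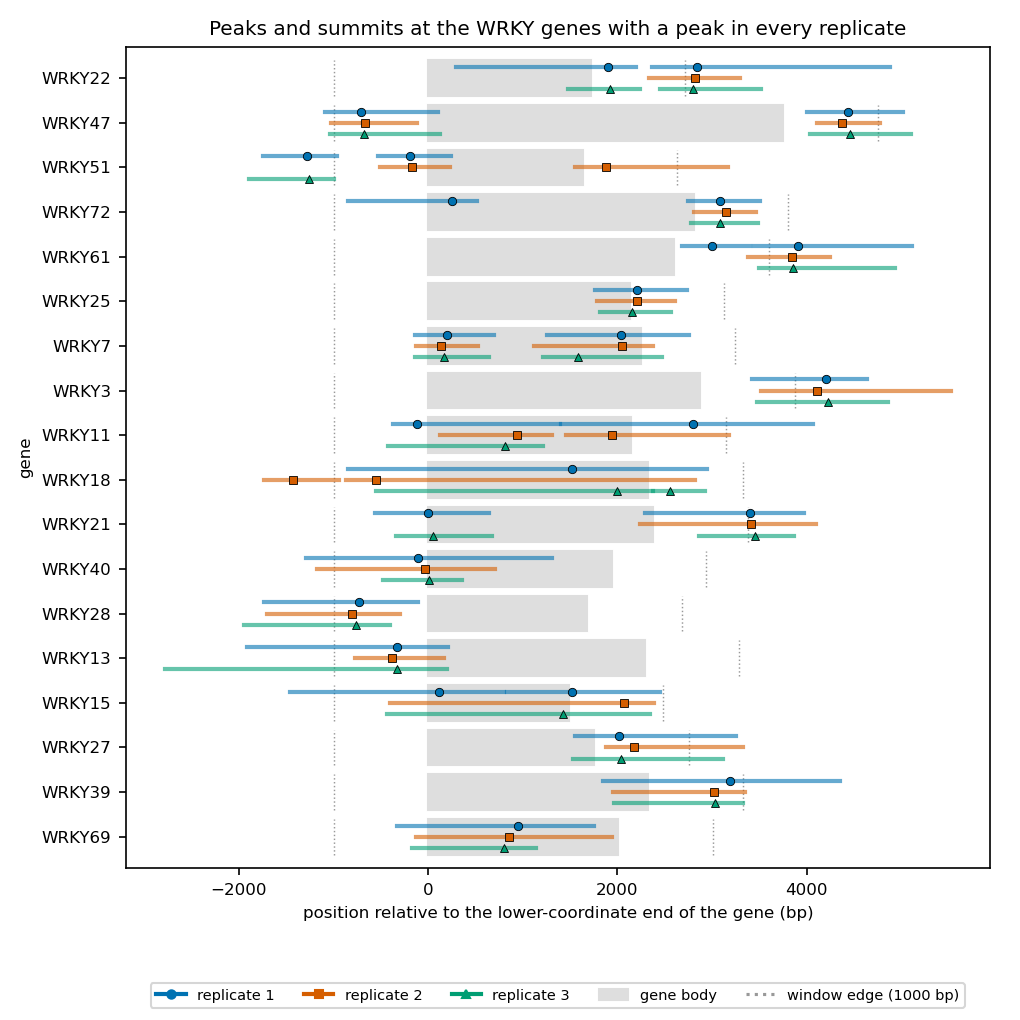
Peaks (lines) and summits (symbols) of the 3 replicates at the 18 WRKY genes with peaks in each, by distance in bp from the lower-coordinate end of the gene (horizontal axis), with genes in order of mean fold enrichment (vertical axis). Grey bars are gene bodies and dotted lines the ends of the 1000 bp flanks. Summits coincide at WRKY22 and WRKY47 and are scattered at WRKY18 and WRKY11.

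The order of the 18 genes by fold enrichment was shared between some lists only. Spearman's rho across these genes was 0.54 between replicates 1 and 2 and 0.58 between replicates 2 and 3, but -0.0031 between replicates 1 and 3. These are correlations across 18 genes and not across samples, the lists differ in depth, and the values come from peaks at different positions in several genes. Fold enrichment was higher in replicate 1 than in replicate 3 at 13 of the 18 genes. The median fold enrichment of the 18 genes was 4.90, 4.64 and 3.84 in replicates 1, 2 and 3, and that of all genes with peaks in each replicate was 4.86, 4.27 and 3.78. Per kilobase of peak the 18 genes had a median of 908, 822 and 611 reads, where all genes had 927, 764 and 635.

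Stricter rules kept few WRKY genes, and different ones. With a fold enrichment of at least 4 in every replicate, 5 genes were left, WRKY7, WRKY18, WRKY22, WRKY25 and WRKY47 (7.46%, against 4.9% of all protein-coding genes). With the deposited false discovery rate at most 1% they were 3, WRKY18, WRKY22 and WRKY28 (4.48%, against 4.78%). WRKY18 and WRKY22 passed both. WRKY47 missed the second rule in replicate 1, with a deposited false discovery rate of 1.1%, and met it in replicates 2 and 3 at 0.62 and 0.4%. With summits of each replicate required in the window, 13 genes were left (19.4%, against 14.3%). WRKY22 was not among them, since its highest-fold summits sit beyond the flank and replicate 2 lacked the weaker peak nearer to the gene. Within gene bodies alone 10 were left (14.9%, against 13.4%), without WRKY22 and WRKY47. Windows of 500 and 2000 bp gave 14 (20.9%, against 16.2%) and 22 genes (32.8%, against 24.3%), and a merged region with all 3 replicates 17 (25.4%, against 20.3%). Peaks in at least 2 replicates were found at 25 WRKY genes (37.3%, against 32.1%). Leaving out replicate 1, 2 or 3 gave 18 (26.9%, against 21.6%), 21 (31.3%, against 21.4%) and 22 genes (32.8%, against 26.8%). The family's share was above that of all protein-coding genes under each of these rules except that on the false discovery rate. These rules cut the same 3 lists again, so they are not independent results. Genes with a symbol of their own, at 23.6% with a peak in each replicate, were counted under no other rule.

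Just outside the window, 3 WRKY genes had the edge of a peak in every list, with summits farther away. WRKY75, which acts in phosphate starvation and senescence, had peaks that began 1069 to 1100 bp from the gene, at fold enrichments of 4.42, 4.47 and 3.48. Their summits lay 5523, 1579 and 1595 bp from the gene in replicates 1, 2 and 3. WRKY2 and WRKY34, which act in pollen, had peak edges 1517 to 1571 bp and 1609 to 1815 bp away. The summits lay 2235 to 2345 bp from WRKY2 and 2324 to 2347 bp from WRKY34. The peaks near WRKY2 had 6.21, 6.25 and 4.34, above the highest-fold peak of most WRKY genes in the same list. Across the 37 genes without a peak, the closest peak of any list was a median of 4699 bp from the gene, with a range of 1069 to 41533 bp.

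**Figure D4:**
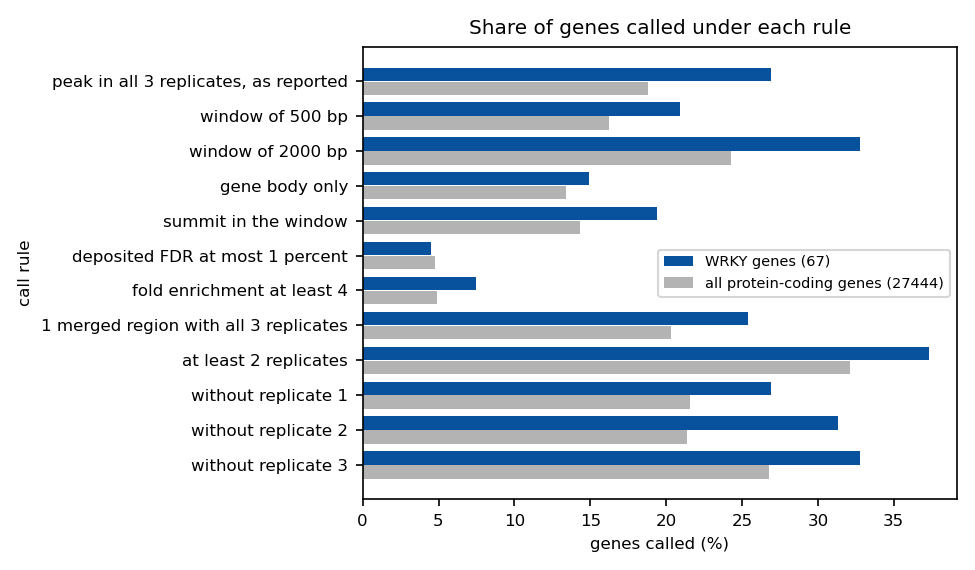
Share of genes called (horizontal axis, %) among the 67 WRKY genes and the 27444 protein-coding genes under each call rule (vertical axis). The WRKY share is 26.9% against 18.8% with a peak in all 3 replicates and 4.48% against 4.78% with a deposited false discovery rate of at most 1%. With a peak in all 3 replicates, the share of protein-coding genes with a symbol of their own, not drawn here, is 23.6%.

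Genes that act with WRKY proteins were examined by the same rule, in a list of 32 kinases, partners, receptors and targets. Peaks in each replicate were found at 9 of the 32 (28.1%, against 18.8% of all protein-coding genes), in 2 replicates at 5, in 1 at 4 and in none at 14. Those without a peak were 43.8% of the list, against 51.9% of all protein-coding genes. Peaks in at least 2 replicates lay at 14 of the 32, where the share of all protein-coding genes was 32.1%. The share with peaks in each replicate was 23.6% for protein-coding genes with a symbol of their own, as all 32 have, and no difference was tested. The 9 genes had a median of the mean fold enrichment of 4.48. The kinase cascade had 2 of 9 (22.2%), the partners 0 of 5, the pattern receptors 3 of 5 (60.0%) and the target genes 4 of 13 (30.8%). Whether these small classes differ from each other or from other genes was not tested.

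Of the kinases, MKK9, a kinase that activates mitogen-activated protein kinases, had 8.63, 6.44 and 3.47 with summits within 85 bp, all nearer to AT1G73510. MEKK1, at the head of a cascade, had 4.31, 3.97 and 3.17 with summits 3608 bp apart. A second peak of replicate 1 at MEKK1, at 3.45, overlapped the peak of replicate 3, with summits at 5404282 and 5403714. MKK4 had 5.07 and 4.11 in replicates 1 and 2, MPK3 had 3.71 and 3.13 in replicates 2 and 3, and MPK6 had 3.57 in replicate 3. The summits at MPK3 lay inside NAXT1 and that at MPK6 inside AT2G43780, while MKK1, MKK2, MKK5 and MPK4 had none. At MKK4 the summit of replicate 1 lay 206 bp from the gene and nearer to AT1G51650. The close relatives MKK4 and MKK5 thus had peaks in 2 and 0 replicates, and neither had them in all 3.

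Among the pattern receptors, FLS2, the flagellin receptor, had 4.75, 4.55 and 3.03 with summits only 3 bp apart, 47 to 50 bp from the gene. Its co-receptor BAK1 had 6.32, 5.02 and 4.57 with summits within 116 bp. The kinase BIK1 had 5.86, 3.92 and 4.39 with summits that lay apart, those of replicates 1 and 3 nearer to AT2G39650, and EFR and CERK1 had none. At BIK1, replicate 1 had a second peak, at 3.46, with its summit at 16531670, near that of replicate 2 at 16531720. The highest-fold summits of replicates 1 and 3 lay at 16529427 and 16529628. For the highest-fold peaks, all 3 replicates thus agreed on the position of the summit at FLS2 and BAK1 but not at BIK1.

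Among the targets, ICS1, the gene of salicylic acid synthesis that WRKY28 activates, had 3.78, 3.79 and 3.31. EDS1, a regulator of immunity, had 4.03, 3.73 and 2.98. ABI5, of abscisic acid responses, had 4.89, 4.79 and 4.31, with the summit of replicate 3 nearer to AT2G36290. IKU2, of seed growth, had 5.14, 4.45 and 3.85, but its summits lay 980, 3437 and 1327 bp from the gene, 2457 bp apart, and nearer to AT3G19690 or AT3G19680. The targets PAD4 (4.91 and 3.77) and FRK1 (7.31, with a summit 1968 bp away and nearer to AT2G19180) had peaks in 2 and 1 replicates, and PAD3, CYP71A13, PR1, SAG12, ABI4, PHO1 and GL2 had none. Of the partners, SIB1 had 4.45 and 5.10 and SIB2 3.62 and 3.28 in replicates 1 and 2, NPR1 had 5.10 in replicate 1, MKS1 had 3.02 in replicate 3 and HDA19 had none.

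**Figure D5:**
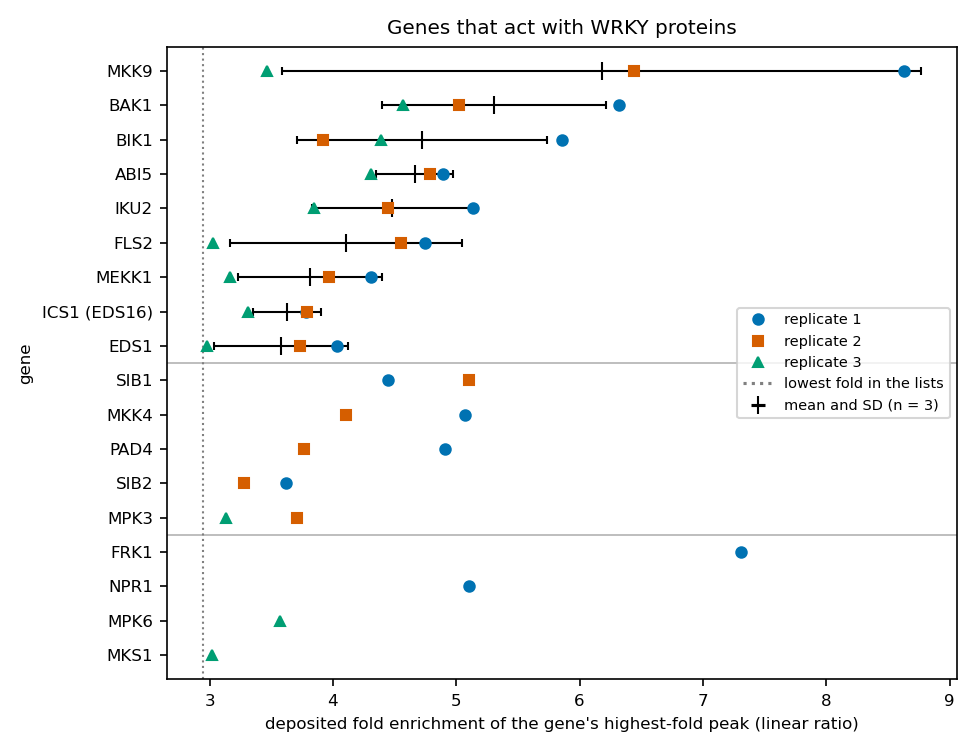
Deposited fold enrichment (horizontal axis, linear ratio) of the highest-fold peak of each replicate at the 18 of 32 genes that act with WRKY proteins (vertical axis) with a peak in any replicate, with the mean and SD where all 3 had one. In each of the 9 genes with 3 values replicate 3 is below replicate 1, from 8.63 against 3.47 at MKK9 to 3.78 against 3.31 at ICS1.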

How the data were processed

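ChIP-seq of phyA-GFP was analysed from 1 peak list per replicate (3 replicates). The submitters' processing notes name Bowtie and the build TAIR10; which peak caller made the lists, with which settings and whether with the input, is not given in the sources used here. The lists have no headers, and columns were read from their values and order, which is that of MACS output. Reads per peak are deposited as raw counts, without normalization by the authors. The deposited score, taken to be a transformed p-value, was not used. Fold enrichment, as deposited, is a ratio on a linear scale. The ninth deposited column was taken to hold the false discovery rate as a percentage (percent). Depth is unknown beyond reads in peaks, and the scales of the lists may differ.

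Summits are the start plus the fifth column. Gene names and coordinates came from the RefSeq gene table of TAIR10.1. In replicate 1, 35.1% of summits lay in protein-coding genes as given. After shifts of 2000, 5000 and 10000 bp the shares were 63.7, 62.4 and 64.7%. Summits as given thus lay in genes less often than under any of these shifts. Overlap meant at least 1 bp. Means and SDs are over 3 replicates, and they contain differences between lists. No test was run. Scripts used Python 3.11.15, numpy 2.4.6 and pandas 2.3.3 and were tested on simulated peaks. The planned count of promoter motifs was not run, since no sequence was used here. All 32 pathway genes matched the table by locus and name.

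The members, subgroups and lists were chosen with earlier results of these data known. Genes were described by name where they were among the 12 highest means, had summits within 200 bp, stood on a list of known functions or belonged to a counted set. Of that function list, WRKY63 is listed as ABO3 and is no member.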

Additional observations from a re-analysis of the deposited data

How the results depend on the processing

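Counts of genes with a peak in each replicate depended on the strictness of the lists. With a deposited false discovery rate of at most 1% they were 3 for WRKY genes, 1312 for all protein-coding genes and 1 for the pathway list, against 18, 5160 and 9. With fold enrichment of at least 4 they were 5, 1345 and 2. With gene bodies alone, 10 WRKY genes were counted. With at least 2 replicates, 8823 protein-coding genes and 14 pathway genes were counted. Leaving out each replicate in turn gave 18 to 22 WRKY genes, 5867 to 7350 protein-coding genes, 9 to 13 pathway genes and a median fold enrichment of 4.28 to 4.83. Coinciding summits were found at 6 WRKY genes within 100 bp, against 11 within 200 bp, at 11 to 16 when each replicate was left out in turn, and at 14 with the closest summits of any peaks in the window, an alternative chosen after seeing the data. Windows of 500 and 2000 bp, summits in the window and merged regions kept the counts within 1.5 times. With the most-read peak in place of the highest-fold one, the means of the 18 genes with 3 values moved by less than their SD. No paired analysis was possible because the series has 1 group with peak lists. Reads in peaks, not library totals, are the only measure of depth, so an absent peak is not evidence of absent binding.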

Other observations

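Of the 5 genes known as WRKY genes but listed under another symbol, 2 had peaks in each replicate. ABO3 (WRKY63), of abscisic acid responses, had fold enrichments of 6.65, 4.99 and 3.38 in replicates 1, 2 and 3 (mean 5.01 ± 1.64, SD, n = 3), with summits within 75 bp at 252 to 327 bp outside its lower-coordinate end. It belongs to group III, in which no member under a WRKY symbol had peaks in all 3 lists. ZAP1 (WRKY1), of group I, had 3.96, 5.47 and 3.89 with summits within 84 bp, 113 to 197 bp outside its lower-coordinate end. TTG2 (WRKY44), which shapes leaf hairs and seed coat, had 4.24 in replicate 2 alone. The resistance genes TTR1 (WRKY16) and RRS1 (WRKY52) had no peak in their windows, with the nearest at 31119 and 10687 bp.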
